A study of Rattus norvegicus with 8 samples.

Results

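The ion-pumping and lipid-flipping ATPases were taken as all polyadenylation sites of protein-coding genes whose symbols begin with Atp1a, Atp1b, Atp2, Atp6, Atp7, Atp8, Atp9, Atp10, Atp11 or Atp13. The rule used gene names and no measured value. It found 49 genes of the 12255 in the table and 384 polyadenylation sites of 73922. The members held 97775 of 13341135 reads (0.733%). Each library was made from the hypothalamus of 1 adult male Long-Evans rat, with 4 rats in a control group kept on standard rodent chow and 4 in an obesity group given a high fat diet without restriction. Tissue was taken after 36 days of diet. Diet-induced obesity is the label of the second group, and body weights were not analysed here. Reads came from WTTS-seq (whole transcriptome termini site sequencing), a method that counts the 3′ ends of polyadenylated RNA. The comparison of the diet groups asked whether the abundance of these 3′ ends, or the choice among them, differed with the diet.

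These proteins spend ATP to move ions or lipids across membranes. The Na,K-ATPase exports sodium and imports potassium, and in brain it is a major consumer of ATP, restoring ion gradients after firing. Calcium pumps of the plasma membrane (PMCA), endoplasmic reticulum (SERCA) and Golgi (SPCA) return cytosolic calcium to rest, and the vacuolar ATPase (V-ATPase) acidifies lysosomes and the synaptic vesicles that are then loaded with transmitter. P4 ATPases flip phospholipids to the cytosolic leaflet of membranes, Atp7a exports copper, and P5 ATPases act on polyamines and other cargo of internal membranes.

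Libraries held 1417531 to 1957726 reads, and the lowest site total over all libraries was 30 reads. A pair of libraries stood apart from the rest in empty sites. Control library 1 had 0 reads at 81 of the member sites and obesity library 1 at 53, against 18 to 33 in each of the other libraries. Libraries carry the numbers 1 to 4 in both groups, and libraries with the same number resembled each other across the groups. What libraries of 1 number have in common is not stated in the labels. Tests were therefore run without and with the number as a block. The tissue label was checked against 8 hypothalamic genes (Avp, Oxt, Hcrt, Pmch, Agrp, Trh, Sim1 and Otp). All 8 had reads, and together they gave 1030 to 1479 CPM in control and 850 to 1085 CPM in obesity. Avp alone gave 814 to 1199 CPM in control and 608 to 825 CPM in obesity. Sim1 and Otp had 0 CPM in control library 1. CPM stands for the reads of a gene, summed over the sites on its main strand and scaled to a common library size. Since the method counts the ends of transcripts, no scaling by transcript length was applied. Priming at internal A-rich stretches was not removed, so a transcript could also give reads away from its end. Values are given as mean ± SD over 4 libraries a group unless stated.

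The group was abundant. The median member had 62.5 CPM, against 20.05 CPM over all genes, and 44 of the 49 genes reached a mean of 10 normalized reads a library. Plasma membrane calcium pumps held the largest part, 30.6% of the summed member CPM. The 11 flippase genes held 13.0%, the 10 subunits of the cytosolic V1 domain of the V-ATPase 8.90%, its 2 accessory genes 9.13%, its 8 membrane V0 subunits 5.84% and the 3 Na,K-ATPase beta subunits 5.97%. SERCA, SPCA, copper and P5 genes held 4.28%, 0.405%, 0.118% and 0.726%. The shares given here do not cover every member. The most abundant gene was Atp2b1, and Atp6ap1, Atp2b2 and Atp9a were also among the highest. The levels of the last 3 overlapped across the 8 libraries, while Atp2b1 was above all of them in every library.

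Members took a smaller share of the reads in the obesity libraries. The share was 0.766%, 0.737%, 0.836% and 0.773% for the control rats, in the order of their numbers, and 0.624%, 0.734%, 0.714% and 0.706% for the obesity rats. The groups did not overlap, although control library 2 and obesity library 2 were closer to each other than the width of their counting intervals. In summed CPM of the members the groups overlapped, at 8524 in control library 2 and 8612 in obesity library 2. The share was not computed for other sets of genes. The mean was 0.778% ± 0.0415 in control and 0.695% ± 0.0484 in obesity. The widest 95% Wilson interval of a library was ± 0.015 percentage points. In bulk tissue, fewer cells of a type and less RNA per cell cannot be told apart. Of the 49 genes, 28 had a negative and 21 a positive log2 fold change (obesity over control), with a median of -0.10, against 0.00 over all genes. Without obesity library 1 the member median was 0.0072.

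**Figure D1:**
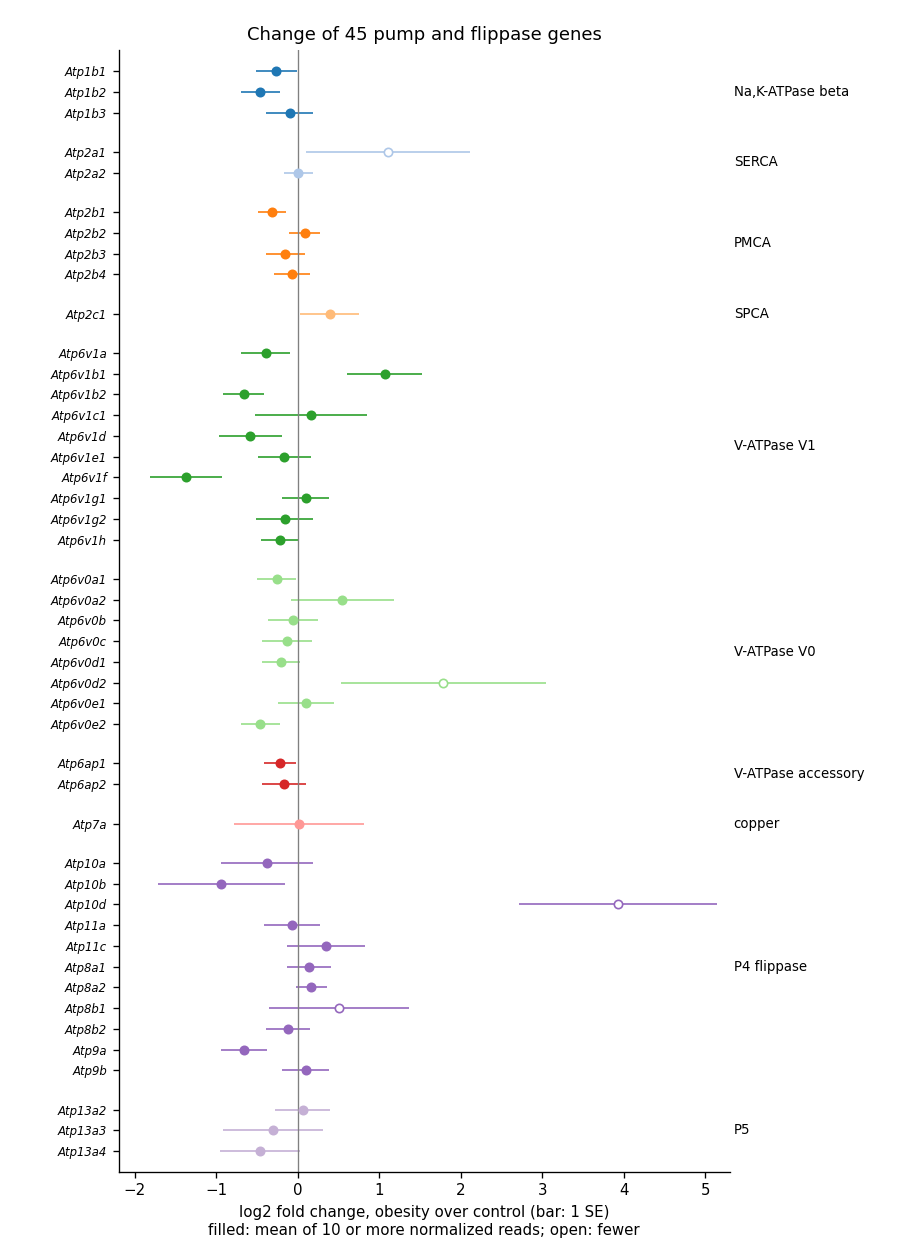
The log2 fold change (obesity over control, edgeR without the block) of 45 of the genes is plotted with a bar of 1 SE, grouped by subfamily. Filled points had a mean of 10 or more normalized reads and open points fewer. Points lie on both sides of 0, with Atp6v1f at -1.37 and Atp6v1b2 and Atp9a at -0.66.

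No member passed an adjusted p of 0.1 in the fit without the block, and neither did any of the 12255 genes (0%). By the DESeq2 Wald test without the block, 0 members passed, against 4 of the 12222 genes given an adjusted p (0.0327%). With the library number as a block, 2 members passed (4.08%), the V-ATPase subunit gene Atp6v1b2 and the flippase gene Atp9a, both lower in obesity, against 34 of all genes (0.277%). At an unadjusted p under 0.05 without the block, 3 members were lower (6.12%) and 2 higher (4.08%), where 2.58% of all genes were lower and 2.54% higher. With the block 6 members were lower (12.2%) and 3 higher (6.12%), against 6.16% and 4.76% of all genes. The groups did not overlap for 1 lower and 1 higher member (2.04% each), against 1.77% and 1.68% of all genes. The higher one was Atp10d, which had 44 reads in all, nearly all in obesity. The counts of higher members above include Atp10d in both fits. The lowest site total in the table was 30 reads, so the control reads of Atp10d alone would not have placed it there. It is therefore counted but not read as a difference.

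The beta subunits of the Na,K-ATPase carry the pump to the cell surface, and Atp1b2 is also an adhesion molecule of glia. Atp1b2 (chromosome 10, minus strand, sites from 56205974 to 56211339; all positions of sites are on Rnor_6.0) had 199, 230, 266 and 262 CPM in control and 137, 263, 136 and 161 CPM in obesity. Obesity libraries 1, 3 and 4 were below every control library, and obesity library 2 was within the control range. For the gene the log2 fold change was -0.46 (SE 0.24), with an adjusted p of 0.921 by edgeR. With the block it was -0.50 (SE 0.18), with an unadjusted p of 0.00872 and an adjusted p of 0.275. When the site of Atp1b2 on the other strand was included, the fold change was -0.18. Atp1b1, the main beta subunit of neurons, had 279 ± 54.7 CPM in control and 233 ± 92.6 CPM in obesity, and Atp1b3 had 60.5 ± 10.2 and 56.6 ± 18.4 CPM. Neither passed an unadjusted p of 0.05 in either fit. The summed level of 7 astrocyte markers was 1901 to 2660 CPM in control and 1501 to 2184 CPM in obesity, and its part in the Atp1b2 values was not tested.

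The lower reads of Atp1b2 were at its most 3′ site. This site (chromosome 10, minus strand, 56205974 to 56206003) had 194, 230, 239 and 235 reads in control and 69, 133, 85 and 120 in obesity. Every obesity library was below every control library. The log2 fold change of the site was -1.24 (SE 0.35), with an unadjusted p of 0.00298 and an adjusted p of 1.0 by edgeR. With the block the adjusted p was 0.145, and by the DESeq2 Wald test with the block 0.00507. Of all reads of the gene, 69.3% ± 2.69 were at this site in control and 41.6% ± 6.47 in obesity. Single libraries lay at 66.9% to 73.1% in the control group and at 36.6% to 50.8% in the obesity group. The site 721 bases before it took 7.93% ± 4.83 of the reads in control and 17.9% ± 5.26 in obesity, and the site 1658 bases before it 4.15% ± 1.47 and 8.92% ± 1.43. The site 51 bases before it had 0, 1, 1 and 1 reads in control and 3, 5, 23 and 7 in obesity. The lowest site total in the table was 30 reads, so the control reads of this site alone would not have placed it there. Among the members, the Atp1b2 site usage test had the smallest p without the block, a Simes p of 0.015 by edgeR, with an adjusted p of 1.0 over all genes tested. Without obesity library 3 the Simes p was 0.129.

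**Figure D2:**
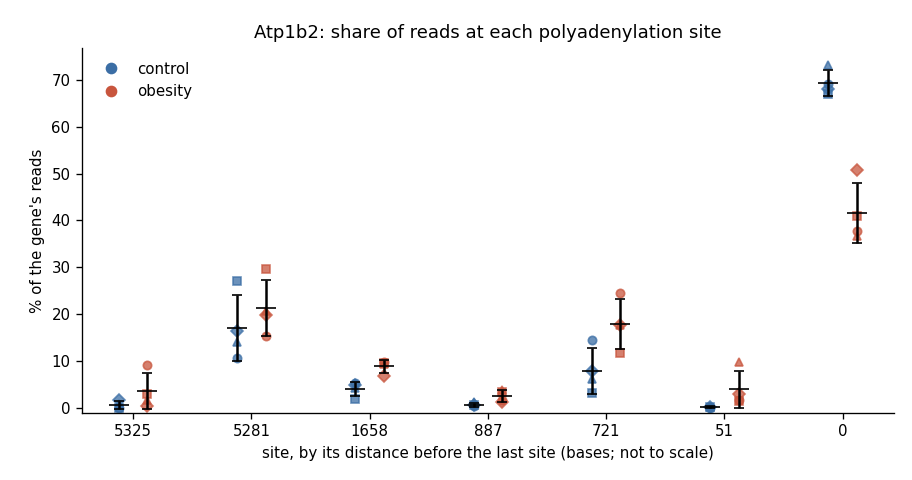
The share of the Atp1b2 reads (%) at each of its 7 sites on the minus strand is plotted for the 8 libraries, with sites in order and named by their distance in bases before the last site. Points are libraries and black bars give the mean ± SD of 4 libraries. At the last site (distance 0) the control libraries lie at 66.9% to 73.1% and the obesity libraries at 36.6% to 50.8%.

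Plasma membrane calcium pumps export calcium and set the resting level in neurons. Atp2b1 (chromosome 7, plus strand, 41114700 to 41223126), in the 99.6th percentile of all genes by level, had 1915, 1672, 1717 and 1591 CPM in control. In obesity it had 1275, 1376, 1406 and 1477 CPM. It was the only lower member whose groups did not overlap. The log2 fold change was -0.32 (SE 0.17), with an unadjusted p of 0.0742 and an adjusted p of 0.921 by edgeR, and with the block -0.32 (SE 0.13), with an unadjusted p of 0.0183 and an adjusted p of 0.337. Its site at 41189830 to 41189862, 33256 bases before the last site, had 131, 160, 88 and 154 reads in control and 66, 89, 57 and 84 in obesity, a log2 fold change of -0.92 (SE 0.34, unadjusted p 0.0175 by edgeR). Most reads of the gene (65.6%) were at site 15 of 19. In CPM of the site it had 1074, 939, 821 and 939 in control and 721, 753, 746 and 831 in obesity. The groups overlapped there only through control library 3 and obesity library 4. Atp2b2 was spread over 57 sites, more than any other member, and had 626 ± 119 CPM in control and 662 ± 97.0 CPM in obesity. Atp2b3 had 290 ± 60.7 and 261 ± 87.6 CPM, and Atp2b4 195 ± 41.2 and 185 ± 28.5 CPM. Neither these nor Atp2b2 passed an unadjusted p of 0.05 in either fit.

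The reticulum pump gene Atp2a2 had the smallest log2 fold change in size of all members. It had 370, 341, 419 and 339 CPM in control and 343, 367, 407 and 360 CPM in obesity, a log2 fold change of 0.01 (SE 0.18). Atp2a1, the pump of fast skeletal muscle, had 40 reads in all. The Golgi pump gene Atp2c1, which carries calcium and manganese, had 26.9, 36.1, 35.8 and 21.3 CPM in control and 45.1, 21.1, 59.8 and 31.3 CPM in obesity. The control values lay within the obesity range, and the log2 fold change was 0.39 (SE 0.36).

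The V-ATPase subunits had lower means in obesity for 14 of 20 genes, with a median log2 fold change of -0.17. The summed level of the 10 V1 genes was 875 ± 184 CPM in control and 680 ± 162 CPM in obesity, and that of the 8 V0 genes 541 ± 84.0 and 479 ± 79.1 CPM. Both pairs of ranges overlapped. Within V1, the A and B subunits form the ring that hydrolyses ATP, and Atp6v1b2 encodes the B subunit of brain. Atp6v1b2 (chromosome 16, minus strand, 22326529 to 22326562) had 350, 439, 457 and 353 CPM in control and 217, 395, 244 and 154 CPM in obesity. The obesity library was the lower in all 4 numbers, by little in number 2. For Atp6v1b2 the log2 fold change was -0.66 (SE 0.25), with an unadjusted p of 0.0168 and an adjusted p of 0.921 by edgeR. With the block it was -0.73 (SE 0.16), with an adjusted p of 0.0727. All of its reads were at 1 site. Without both libraries of number 3 or number 4, the adjusted p with the block was 0.416 or 0.622, and without number 2 it was 0.00095.

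The other B subunit gene, Atp6v1b1, is known from acid-secreting epithelia and was low here. It had 6.37, 11.4, 10.6 and 19 CPM in control and 38.3, 20.3, 25.8 and 15 CPM in obesity, which gave a log2 fold change of 1.07 (SE 0.46), at an unadjusted p of 0.0325 and an adjusted p of 0.921 by edgeR. With the block the unadjusted p was 0.0321. Number 4 had the opposite order from the other numbers. At its last site alone the groups did not overlap, with 9, 16, 13 and 12 reads in control and 32, 23, 41 and 19 in obesity. The catalytic A subunit gene Atp6v1a was lower in the obesity library of all 4 numbers, at 56.9 ± 10.95 CPM in control and 43.5 ± 14.6 CPM in obesity, a log2 fold change of -0.39 (SE 0.30).

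Atp6v1f, a subunit of the central stalk, had the most negative log2 fold change of all members. It had 38.2, 16.1, 79.7 and 38.0 CPM in control and 21.8, 10.6, 19.3 and 14.3 CPM in obesity. The obesity library was the lower in all 4 numbers, but control library 2 lay among the obesity libraries. The log2 fold change was -1.37 (SE 0.44), with an unadjusted p of 0.00666 and an adjusted p of 0.921 by edgeR, and with the block -1.26 (SE 0.35), with an adjusted p of 0.146. Without control library 3 the fold change was -0.89. The gene rested on 322 reads at 1 site. Atp6v1d, also of the central stalk, had 30.1 ± 8.92 CPM in control and 20.1 ± 8.13 CPM in obesity. The peripheral stalk genes Atp6v1e1, Atp6v1g1 and Atp6v1g2 had log2 fold changes of -0.17, 0.10 and -0.16, and the regulatory subunit gene Atp6v1h -0.22 (SE 0.23).

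In the membrane domain V0, Atp6v0e2 (chromosome 4, plus strand, 78172020 to 78172049) had 140, 93.7, 150 and 96.5 CPM in control and 79.6, 101, 93.1 and 74.9 CPM in obesity. Its log2 fold change was -0.46 (SE 0.24), with an unadjusted p of 0.0706 by edgeR, and of 0.0381 with the block, where the adjusted p was 0.418. Its paralog Atp6v0e1 had 30.8 ± 7.17 and 32.9 ± 9.46 CPM. The ring subunit gene Atp6v0b had 95.6, 112, 199 and 106 CPM in control and 66.8, 189, 135 and 100 CPM in obesity, and Atp6v0d1 125, 104, 112 and 120 CPM in control and 82.6, 135, 77.3 and 105 CPM in obesity. Obesity library 2 was the highest obesity library for both and for Atp6v1b2 and Atp1b2. The accessory gene Atp6ap1, which guides assembly of the complex, had 924, 640, 778 and 808 CPM in control and 835, 692, 621 and 560 CPM in obesity, a log2 fold change of -0.22 (SE 0.19). Atp6ap2, the (pro)renin receptor, had 66.2 ± 18.2 and 58.8 ± 8.86 CPM.

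**Figure D3:**
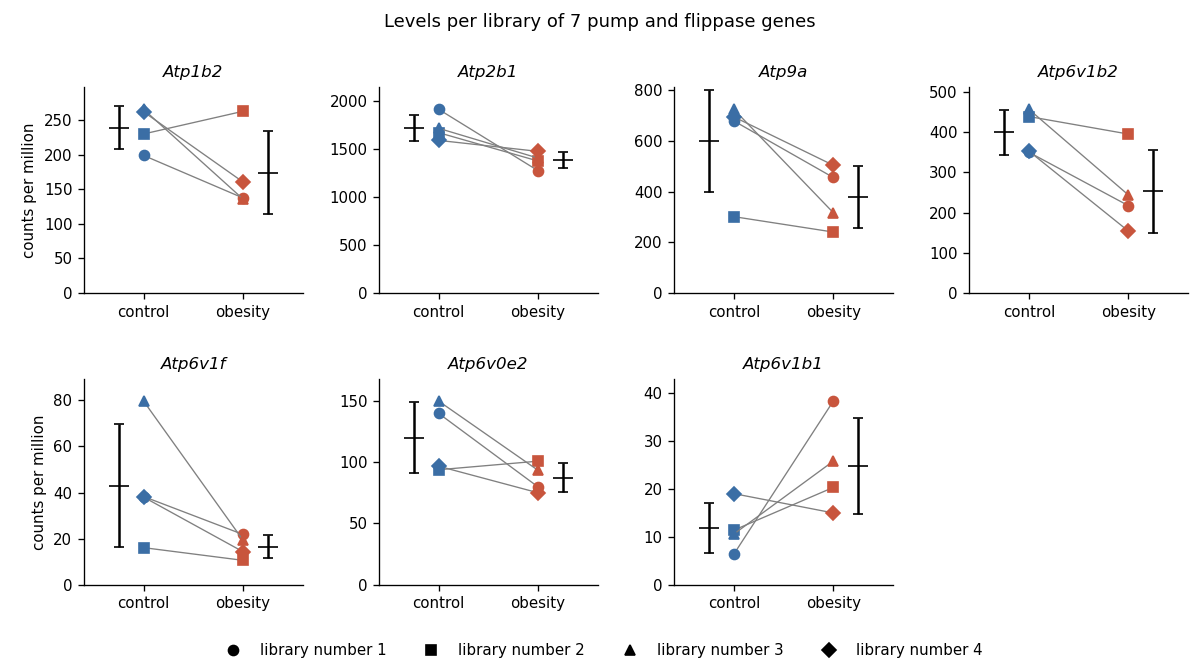
Levels (CPM, linear axes from 0) of 7 genes are plotted for control and obesity libraries, with lines joining libraries of the same number and black bars giving the mean ± SD of 4 libraries. Atp6v1b2, Atp9a, Atp6v1f and Atp2b1 are lower in the obesity library of every number, while Atp1b2, Atp6v0e2 and Atp6v1b1 have 1 number in the opposite order.

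Since V-ATPase genes share a known regulator, their promoters were read for its motif. Transcription factor EB and its relatives, which control lysosomal genes, bind an element with TCACGTGA at its centre, a sequence that reads the same on both strands. Promoters covered 250 bases before to 50 bases after the start (RefSeq, build GRCr8), and 35 member genes had one. The motif was in 260 of 33469 rat promoters (0.777%), in 2 of 15 V-ATPase genes and in 0 of 20 other members. The 2 windows of 30 bases are shown 5′ to 3′ with the motif in capitals, for Atp6v0e1 (chr10:17007115-17007144, minus strand, motif from base 24 after the start) and Atp6v0d1 (chr19:50357283-50357312, minus strand, motif from base -53).
Atp6v0e1: tcgcgcgccggTCACGTGAgcctctgttga
Atp6v0d1: ccccattgtggTCACGTGAgatgcagtgcg
Neither gene was among the members with an unadjusted p under 0.05 in either fit, at log2 fold changes of 0.10 (SE 0.34) and -0.21 (SE 0.23). A match is a match of letters and no measurement of binding.

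Flippases keep phosphatidylserine and phosphatidylethanolamine on the cytosolic side of membranes. Atp9a, an endosomal P4 ATPase that works without the usual beta subunit, was the most abundant of the 11 and the only one past the adjusted threshold with the block. Atp9a (chromosome 3, minus strand, 165404807 to 165500185) had 679, 301, 725 and 695 CPM in control and 456, 240, 317 and 504 CPM in obesity. The obesity library was the lower in all 4 numbers, and the groups overlapped only through control library 2. For Atp9a the log2 fold change was -0.66 (SE 0.28), with an unadjusted p of 0.032 and an adjusted p of 0.921 by edgeR. With the block it was -0.64 (SE 0.15), with an adjusted p of 0.088. Without both libraries of number 3 or number 4, this adjusted p was 0.565 or 0.496, and without number 2 it was 0.00393. Site 10 of 11 held 88.4% of the reads, with 904, 383, 850 and 800 in control and 522, 282, 485 and 547 in obesity.

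Of the 11 flippase genes, 5 had a negative log2 fold change, Atp9a among them, and 6 a positive one. The closest paralog of Atp9a, Atp9b, had 81.9 ± 16.8 CPM in control and 87.4 ± 38.2 CPM in obesity. Atp8a2, a neuronal flippase, had 186, 214, 156 and 191 CPM in control and 195, 196, 228 and 219 CPM in obesity, a log2 fold change of 0.17 (SE 0.19), and Atp8a1 had 127 ± 49.5 and 140 ± 29.9 CPM. Atp8b2 and Atp11a had log2 fold changes of -0.12 and -0.07. The second of 16 sites of Atp8a2 (chromosome 15, minus strand, 40452335 to 40452356) had 10, 22, 8 and 14 reads in control and 40, 25, 39 and 30 in obesity. Its groups did not overlap, and the log2 fold change was 1.19 (SE 0.46, unadjusted p 0.0216 by edgeR). Atp10d, chosen after its values were seen and below the level set for naming, had 0, 0, 0 and 2 reads in control and 5, 6, 22 and 9 in obesity. The lowest site total in the table was 30 reads, so its control reads alone would not have placed it there. Its p is therefore not given.

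The copper exporter gene Atp7a had 8.50, 12.7, 7.31 and 12.2 CPM in control and 0, 2.44, 26.4 and 11.6 CPM in obesity. Its direction depended on the fit, with a log2 fold change of 0.01 (SE 0.80) without the block and -0.68 (SE 0.75) with it. Of the P5 genes, the lysosomal polyamine transporter gene Atp13a2 had 48.2, 26.8, 50.4 and 48.6 CPM in control and 50.3, 64.1, 41.0 and 25.9 CPM in obesity. Atp13a4 had 15.6, 10.7, 13.8 and 12.2 CPM in control and 6.01, 13.0, 9.96 and 8.85 CPM in obesity. The groups overlapped for all 4 P5 and copper genes.

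At the level of single sites, 0 of the 384 member sites passed an adjusted p of 0.1 by edgeR without or with the block, against 0.00135% and 0.00541% of all 73922 sites. The DESeq2 Wald test with the block gave an adjusted p to 39 member sites and called 5 of them (12.8%), all lower in obesity, in Atp1b2, Atp9a, Atp6v1b2, Atp2b1 and Atp2b3. Of the 3697 sites of all genes that were given one, 4.63% were called lower. At an unadjusted p under 0.05 without the block, 10 member sites were lower (2.6%) and 15 higher (3.91%), against 1.41% and 1.72% of all sites. With the block 23 were lower (5.99%) and 22 higher (5.73%), against 3.31% and 2.79%. The groups did not overlap at 5 lower and 12 higher member sites (1.3% and 3.12%), against 1.69% and 1.43% of all sites. The median member site had 71 reads in all, above the 57 of all sites. Atp6v0a1, the V0 subunit that forms the proton path beside the ring, had a site (chromosome 10, plus strand, 88941233 to 88941245) with 35, 36, 31 and 44 reads in control and 29, 10, 9 and 15 in obesity, a log2 fold change of -1.34 (SE 0.48, unadjusted p 0.0145 by edgeR).

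Site usage, the share of a gene's reads at each of its sites, was tested in the 38 members with 2 or more sites. None passed an adjusted p of 0.1, against 0% of 7996 genes without the block and 0.0125% with it. At an unadjusted Simes p under 0.05 there was 1 member without the block (2.63%, Atp1b2), against 1.36% of genes. With the block there were 5 (13.2%), against 2.79%, among them Atp1b2, Atp2b1, Atp9a and Atp1b1. The last site was the most used one in only 16 of the 38 members. In Atp9a and Atp2b1, for example, the most used sites were site 10 of 11 and site 15 of 19, and the last sites held 1.52% and 0.812% of the reads.

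The share of reads at the last site was averaged over the 37 members with reads in every library. It was 35.5%, 37.4%, 39.0% and 34.1% in control and 31.0%, 37.3%, 30.7% and 27.2% in obesity. Obesity libraries 1, 3 and 4 were below all control libraries, and obesity library 2 was within the control range. The means were 36.5% ± 2.14 and 31.5% ± 4.22, and the last-site share was lower in obesity for 26 of the 37 members. The same average was not computed over other genes, so whether the members differ from them is not known.

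The library number took a larger part of the variance than the diet in most members, as its degrees of freedom favour. In log2 CPM, the number took a median of 50.1% of the variance of a member and the group 10.2%, against 53.6% and 9.80% over 9300 genes at the same minimum level. The number has 3 of the 7 degrees of freedom and the group 1. By degrees of freedom alone the shares would be 42.9% and 14.3%. The number exceeded the group in 36 of 44 members, and this count was not made over all genes. Among the highest were Atp8b2 at 95.6% and Atp6v1c1 at 95.2%. Atp6v1c1, which joins the V1 and V0 domains, had 32.6, 64.2, 167 and 72.2 CPM in control and 35.3, 62.5, 229 and 44.9 CPM in obesity, so library 3 was highest in both groups.

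Some single sites had reads almost entirely in libraries of the same number. The sites described by name were chosen after their values were seen. Of 172 member sites with a mean of 10 normalized reads, 25 in 18 genes had at least 90% of their variance between numbers (14.5%), against 9.33% of 25411 sites. Atp9a site 5 had 0, 2, 3 and 85 reads in control and 1, 1, 5 and 143 in obesity. Site 19 of Atp8a1, a flippase of neurons and other cells, had 5, 133, 5 and 11 reads in control and 1, 130, 1 and 1 in obesity. Reads at the Atp9a site were thus mostly in number 4 and at the Atp8a1 site mostly in number 2. The Atp8a1 site had 87.7% of its variance between numbers, so it was not among the 25. Site 3 of Atp6v1c1 had 2, 20, 122 and 21 reads in control and 3, 14, 294 and 10 in obesity, and a site on the other strand of the V0 ring gene Atp6v0c had 0, 43, 2 and 4 reads in control and 0, 39, 7 and 2 in obesity.

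Sites of calcium pump and beta-subunit genes also differed between numbers. Site 6 of Atp2b3 had 34, 2, 6 and 52 reads in control and 26, 0, 13 and 135 in obesity, so reads were scarce in number 2 of both groups. Site 15 of Atp1b1 had 39, 135, 35 and 40 reads in control and 28, 111, 34 and 27 in obesity, highest in number 2 of both groups. Site 22 of Atp2b2 had 19, 1, 9 and 5 reads in control and 31, 0, 24 and 14 in obesity. Numbers 1 and 3 were above numbers 2 and 4 at this site in each diet group.

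**Figure D4:**
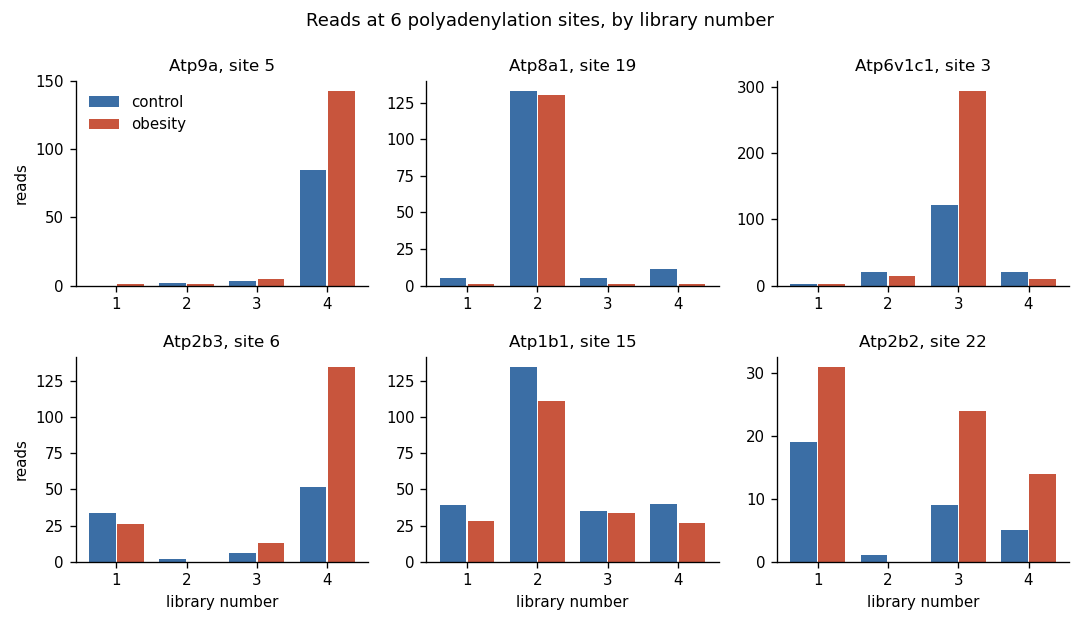
Bars give the reads (linear axis from 0) at 6 polyadenylation sites in the libraries numbered 1 to 4 of the control and the obesity group. The height follows the number in both groups: Atp9a site 5 has reads in number 4 (85 and 143 reads), Atp8a1 site 19 in number 2 (133 and 130 reads) and Atp6v1c1 site 3 in number 3 (122 and 294 reads).

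A list of 44 partner genes of these pumps (regulatory subunits, assembly factors, copper carriers, scramblases and sodium-calcium exchangers) gave 29 measured genes. Their median log2 fold change was 0.13, against 0.00 over all genes. None passed an adjusted p of 0.1 by edgeR in either fit. At an unadjusted p under 0.05, 0 were lower and 1 was higher without the block, the calcium-activated scramblase gene Ano6, at a log2 fold change of 1.11 (SE 0.48, unadjusted p 0.0353). Over all genes 2.58% were lower and 2.54% higher without the block, and 6.16% and 4.76% with it. With the block 0 of the 29 partners were lower and 5 higher. Besides Ano6 these were the scramblase relatives Xkr4 (0.37, SE 0.15) and Xkr6 (0.40, SE 0.19), the copper chaperone gene Ccs and the sodium-calcium exchanger gene Slc8a2. The flippase subunit gene Tmem30a had a log2 fold change of -0.07 (SE 0.25).

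Markers of cell types were compared beside these results. The 6 neuronal markers together had 2573 to 3280 CPM in the control libraries and 2497 to 3342 CPM in the obesity libraries. The 7 oligodendrocyte markers summed to 17175 to 22643 CPM in control and 13320 to 20978 CPM in obesity, with 7 of 7 lower on average. Of 5 choroid plexus markers 1 was measured, Ttr, at 98.0 CPM in obesity library 4 and at most 1.52 CPM in control. The anterior pituitary markers, of which 4 of 6 were measured, summed to 40.6 to 89.96 CPM in control and 8.85 to 188 CPM in obesity, the highest in obesity library 2. Pomc and Cga gave most of the control sum, at 22.8 to 52.9 and 10.6 to 50.3 CPM. Gh1 was at most 0.813 CPM in control and 70.6 CPM in obesity library 2, and Lhb at most 6.50 and 47.1 CPM. Of 5 microglial markers 3 were measured, at 73.0 to 117 CPM in control and 30.04 to 90.9 CPM in obesity, and 3 endothelial markers summed to 42.8 to 78.6 and 39.8 to 110 CPM. The part of these differences in the member values was not tested.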

How the data were processed

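Total RNA was fragmented, enriched for polyadenylated ends, reverse transcribed, size selected and amplified, per the labels. The deposited values are raw counts of reads per polyadenylation site, with no normalization, and the authors deposited 1 table for 8 libraries. The submitters' processing notes name Rnor_6.0 and Bowtie2 2.2.3. Their role and the site calling are not given in the sources used here. The last line of the table names no site and holds only the column total of control library 1, 1710888 reads, and it was left out. The paper linked to the series describes another exposure, so the groups are those of the labels. The members, partner and marker lists, the rule for named genes and the tests were chosen with earlier results of these data known.

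Gene counts were sums over sites on the strand with most reads of the gene. Members had 9 sites with 799 reads on the other strand, and reads of overlapping genes cannot be told apart there. For genes and for sites, edgeR 4.0.16 was run in R 4.3.3 with TMM scaling and a robust quasi-likelihood fit, and its F test was adjusted by Benjamini-Hochberg over the whole table, at a threshold of 0.1. Site usage was tested with diffSpliceDGE (Simes). The fit without the block was primary. Deviations from group means correlated at 0.224 to 0.33 between libraries of the same number and at -0.174 to 0.0468 between others, and on this basis libraries of 1 number were treated as pairs. This pairing comes from the data. Alternatives used DESeq2 1.42.0. Named genes were the 2 most abundant of each subfamily and those with an unadjusted p under 0.05 in either fit at a mean of 10 normalized reads, and for sites those that also had no overlap between groups. Scripts were tested on simulated data. Reads carry no molecular identifiers, so intervals cover counting error only. No class of exon, intron or UTR was given to a site, and priming at internal A-rich stretches was not removed. Some members enter the counts but are not reported here by name.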

Additional observations from a re-analysis of the deposited data

Results flagged for a closer look

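In 64 checks of a group's 4 libraries for the named genes, 4 had a single library far from the other 3, where about 3.2 would be flagged by chance. All 4 were control libraries. For Atp13a2, control library 2 had 26.8 CPM against 48.2 to 50.4 in the others. For Atp9a, control library 2 had 301 CPM against 679 to 725. For Atp6ap2, control library 3 had 93.5 CPM against 56.0 to 58.5, and for Atp6v0b the same library had 199 CPM against 95.6 to 112. For Atp9a, obesity library 2 was also the lowest of its group, at 240 CPM.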

How the results depend on the processing

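The count of member genes past the adjusted p of 0.1 was 0 without the block, 2 with the replicate number as a block and 3 by DESeq2 with the block (among them Atp6v1b2 and Atp9a). Over all 12255 genes these counts were 0, 34 and 130. DESeq2 with the block gave 23 members no adjusted p, and how many of all genes got none was not counted. Calls over all genes or sites were not counted for the fits that left out libraries or low counts. Nor were they for DESeq2 site calls at an unadjusted p. Member counts in those fits thus have no share to be set against. With the block and without both libraries of a number, the count of member genes past the adjusted p was 0 to 5. It was highest without number 2 and was 3 without number 1. At an unadjusted p under 0.05 the count of 5 was 9 with the block and 8 by DESeq2 with the block, where 1072 of all genes passed. Leaving out single libraries gave 2 (control library 3 left out) to 8 (obesity library 2 left out), with 3 without obesity library 3, and the block without number 2 gave 13. Member sites past the adjusted p numbered 0, 5 by DESeq2 with the block, and 0 to 7 with the block and without a number, the 7 without number 2. The 25 sites at an unadjusted p under 0.05 became 45 with the block, 39 by DESeq2 with the block, 12 with filterByExpr and 46 with the block and without number 2. Site usage at an unadjusted p under 0.05 was 1 gene, 5 with the block, 0 with filterByExpr or a mean of 10 reads a site, 1 to 3 over single libraries left out, and with the block 2 without number 1 and 4 without number 2.

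Some small log2 fold changes reversed when single libraries were left out, with ranges of -0.15 to 0.26 for Atp13a2, -0.037 to 0.081 for Atp2a2, -0.018 to 0.20 for Atp2b2, -0.24 to 0.047 for Atp6ap2, -0.34 to 0.24 for Atp6v0b, -1.08 to 0.42 for Atp7a and -0.14 to 0.0072 for the member median. With the block they reversed without number 1 for Atp6v0b (0.037), without number 2 for Atp13a2 (-0.37), Atp2a2 (-0.023) and Atp7a (-0.16), without number 3 for Atp6ap2 (0.14), Atp6v0b (0.074) and Atp7a (-1.82) and without number 4 for Atp7a (-1.04). Atp7a was -0.68 with the block and -0.98 by DESeq2 with the block. The cause was not tested. The other 586 of the values compared kept their direction and side of the threshold or moved little, and 14 values of single genes or sites passed the threshold only under an alternative. Depth limits the 5 members under 10 normalized reads, whose fold changes rest on 32 to 48 reads.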

Other observations

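The sites on the strand opposite to the rest of their gene entered no gene level. The Atp1b2 site (chromosome 10, plus strand, 56207045 to 56207066) had 16, 9, 0 and 3 reads in control and 216, 0, 4 and 2 in obesity. The Atp2b2 site (chromosome 4, plus strand, 145869664 to 145869693) had 0, 3, 6 and 3 reads in control and 63, 1, 3 and 11 in obesity. Obesity library 1 thus held most reads of both, and this library was also among the 2 with many member sites at 0 reads. The Atp1b1 site (chromosome 13, plus strand, 82737984 to 82737994) had 3, 8, 6 and 22 reads in control and 31, 11, 36 and 4 in obesity, and so was read in all 8 libraries.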
